A study of Drosophila melanogaster with 6 samples.

Results

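The genes described here are the nuclear receptors of Drosophila melanogaster together with genes that respond to the steroid hormone ecdysone, modulate its action or inactivate it, as RNA levels in T4/T5 neurons. They were taken from a list of 38 gene symbols and looked up among the 23932 features of the deposited count table. All 38 were found, 36 by their present symbol and 2, Eip71CD and Eip55E, under the newer symbols MsrA and Cth. T4/T5 cells sit in the optic lobe, where they compute the direction of visual motion. The knockdown group (3 libraries) carried UAS-CD8-GFP over UAS-DRGX-IR with R23G12-Gal4 over a wild-type chromosome, so the driver expressed an inverted-repeat hairpin against Drgx, a paired-like homeobox gene. The control group (3 libraries) carried UAS-CD8-GFP over a wild-type chromosome with R23G12-Gal4 over UAS-cherry-IR, a hairpin against a fluorescent protein that flies lack. Both groups therefore carried the driver, the membrane GFP used for sorting and 1 hairpin, and by the order of the genotypes the hairpins sit on different chromosomes. Larvae were raised at 25 °C and GFP-positive cells were sorted from dissociated brains at the wandering stage that ends the third instar. The labels give neither sex nor the number of brains per library, and nothing says that the replicates came from separate cultures, so p-values measure the spread between these libraries, which may be technical.

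Ecdysone is made mainly in the prothoracic gland and is converted in other tissues to its active, hydroxylated form. The hormone binds a heterodimer of 2 nuclear receptors, EcR and Usp, which then switches on a small set of early genes that encode transcription factors, among them br, Eip74EF and Eip75B. Their products, with the receptors Hr3, Hr4 and Ftz-f1, time the later responses, and Eip93F acts late in the sequence to direct adult development. In the nervous system the hormone is known for remodelling larval neurons at metamorphosis and for timing the maturation of neurons in the pupal optic lobe. The cells measured here were taken as the hormone rises at the end of larval life.

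Total counts per library ran from 29587960 to 37378266 in knockdown and from 31716526 to 44054609 in control. Drgx itself had 729, 729 and 663 CPM (counts scaled to library size with TMM factors) in the knockdown libraries, against 2110, 2156 and 2160 CPM in the control libraries, a log2 fold change of −1.60 (SE 0.0512, edgeR adjusted p 7.29e-08). All fold changes are knockdown over control. All 9 T4/T5 lineage genes looked up were detected in both groups, with a summed level of 3337 to 3503 CPM in knockdown and 4995 to 5284 CPM in control. Of them SoxN, Sox102F, dac and bi passed the test as lower, where 4.11% of all tested features were called lower. The genes acj6 (log2 fold change 0.22) and fd59A (0.99) were higher without overlap but did not pass, and TfAP-2, grn and ato were at −0.04, −0.07 and −0.29. Among neuronal genes fne was higher in knockdown (log2 fold change 1.23) and nSyb, brp and Syt1 lower (−0.48, −0.78 and −0.46), while elav was at −0.02. Of 9 glial genes 3 passed the test, all higher (Gs2, loco and nrv2), where 2.10% of all tested features were called higher. The summed glial level was 830 to 890 CPM in knockdown and 610 to 695 CPM in control. Of that sum nrv2 alone held a mean of 600 CPM in knockdown and 460 CPM in control. Eaat1, alrm and wrapper were also higher without overlap but did not pass (log2 fold changes 0.39, 0.33 and 0.69), and moody overlapped at 0.54. The glial gene Gli was lower without overlap and did not pass (0.647 CPM in knockdown, 5.48 CPM in control), and repo, which defines glia, stood at 9.82 CPM in knockdown and 9.74 CPM in control. Thus 6 of the 9 were higher and 1 lower without overlap, where 23.3% of all tested features did not overlap. Summed levels in knockdown and control were 257 to 272 and 218 to 240 CPM for 7 progenitor genes, 3.04 to 5.34 and 2.32 to 3.08 CPM for 6 photoreceptor genes, 1.43 to 2.81 and 1.72 to 5.57 CPM for 5 hemocyte genes, and at most 0.783 and 0.116 CPM for 4 fat body genes. None of the progenitor genes passed by edgeR (3 at an unadjusted p under 0.05, 1 call by DESeq2, 0 by limma-voom). Higher without overlap were stg, ase and PCNA, at 118, 62.6 and 37.3 CPM in knockdown and 94.8, 47.7 and 33.2 CPM in control. Lower without overlap was mira, at 21.8 CPM in knockdown and 27.9 CPM in control. CycE, dpn and wor overlapped, at 11, 2.92 and 12.7 CPM in knockdown and 9.74, 4.03 and 14.6 CPM in control. The hemocyte genes NimC1, srp and He and the photoreceptor genes ninaE and Rh6 had no count in any library. Knockdown replicate 2 stood apart from the other libraries on the second principal component, so results that rest on it are given with and without it. In sorted bulk samples fewer cells of a type and less RNA per cell cannot be told apart.

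Levels were first compared within the set, per kilobase of exon, since a longer transcript yields more reads. The most abundant gene was br, which encodes a family of BTB zinc finger factors from 1 locus, with a mean of 123 CPM per kilobase in knockdown and 167 in control. crol, a zinc finger gene induced by ecdysone in other tissues, followed with 117 CPM per kilobase in knockdown and 111 in control. The third was tll, an orphan receptor known from optic lobe progenitors, with 65.5 CPM per kilobase in knockdown and 70.5 in control. Eip93F had 26.1 CPM per kilobase in knockdown and 65.5 in control, and Eip75B had 49.1 in knockdown and 62.9 in control. The kinase gene Eip63E (53.2 in knockdown, 49 in control), usp (31.3 in knockdown, 37.7 in control) and the receptor co-factor gene rig (28 in knockdown, 24.5 in control) completed the 8 highest levels. EcR stood lower than its partner usp per kilobase, at 9.96 in knockdown and 10.7 in control. How reads of overlapping genes were counted, and whether strand was used, is not given in the sources used here, so shared exon bases are stated where they are many. Exon length here is the union over all annotated transcripts, and with the longest transcript instead br had 344 CPM per kilobase in control and Eip75B had 103.

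At the other end, 6 of the 38 genes were below the expression filter and were not tested. knrl, eg and Cyp18a1 had no count in any library, which allows a level of up to 0.069 to 0.102 CPM by counting error. knrl and eg are relatives of the gap gene kni that lack a ligand-binding domain, and Cyp18a1 encodes the hydroxylase that inactivates the active hormone. kni had no count in knockdown and 4, 0 and 0 counts in control. Hr83 had 0, 2 and 0 counts in knockdown and none in control. Hr51, a receptor known from mushroom body neurons, had 1, 0 and 9 counts in knockdown and 0, 0 and 10 in control. The receptors Hr3, Hr38 and dsf and the genes Blimp-1, Eip63F-1, ImpE3, ImpL1 and E23 passed the filter but had means of at most 1.97 CPM in either group.

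**Figure D1:**
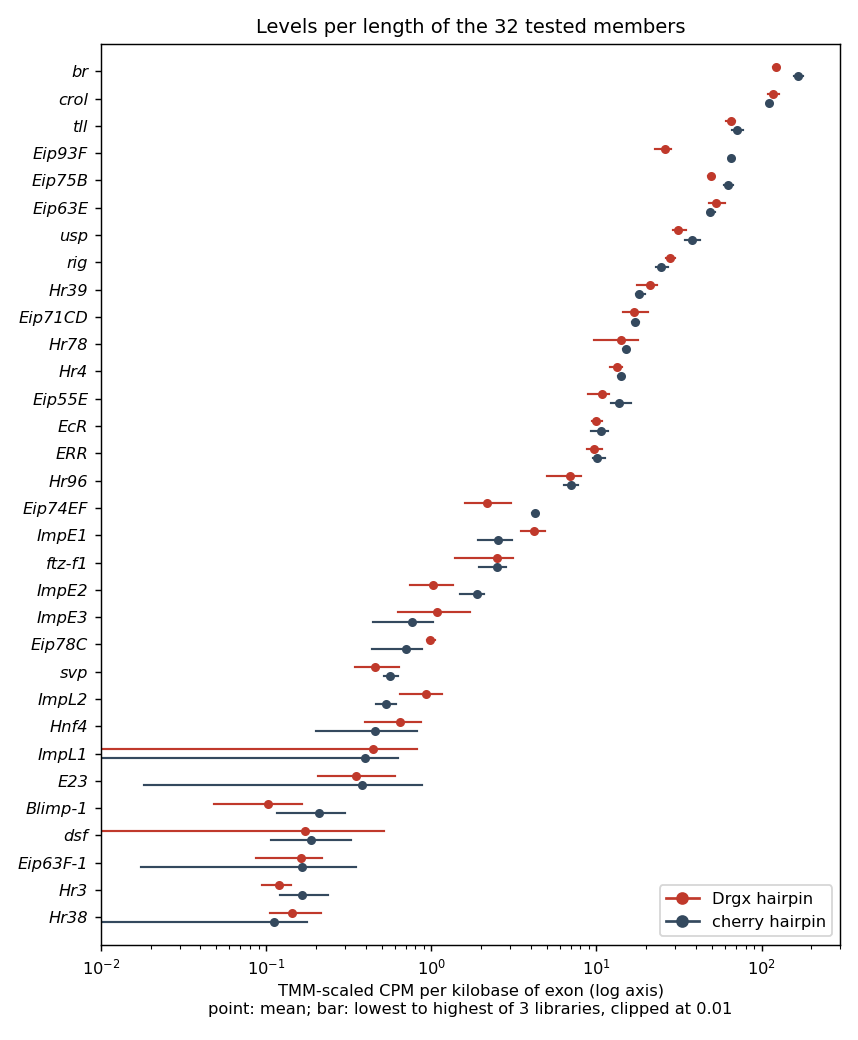
Mean level per kilobase of exon, in TMM-scaled CPM on a log axis, of the 32 tested genes in the 3 knockdown libraries (red, upper mark) and the 3 control libraries (dark, lower mark), with bars from the lowest to the highest library. br and crol lie at the top at over 100 CPM per kilobase, Hr38 and Hr3 at the bottom by the mean of both groups, at under 0.2, and Eip93F shows the widest separation among the abundant genes.

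The comparison of the groups asked whether the RNA levels of these receptors and response genes depend on Drgx. Of the 32 tested genes, 4 had an edgeR adjusted p under 0.05, and all 4 were lower in knockdown. These were Eip93F, Eip74EF, br and Eip75B. The 4 calls are 12.5% of the tested genes, where 6.21% of all tested features were called, 4.11% as lower and 2.10% as higher. None was called higher by edgeR's quasi-likelihood test, against 1 with DESeq2 (ImpE1) and 0 with limma-voom, and 6 had an unadjusted p under 0.05. Of all 9932 tested features, 1630 had an unadjusted p under 0.05 by the same edgeR test. The median log2 fold change was −0.08 over the 32 tested genes and 0.00 over all tested features. Knockdown and control values did not overlap for 9 of the 32, 3 higher and 6 lower, where 23.3% of all tested features did not overlap.

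The called genes are long. Their annotated spans ran from 60654 to 113744 bp, and all 4 were among the 16 tested genes of the set with a span of 20 kb or more. Among all tested protein-coding genes of at least 20 kb, 27.4% were called, against 4.29% of shorter ones. So the 25% called among the long genes of the set lies near the share for long genes in general.

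Neither of the 2 subunits of the ecdysone receptor passed the test. EcR (FBgn0000546, chromosome arm 2R, 6087873 to 6169087 in BDGP6.54) had 108, 93.2 and 96.1 CPM in the knockdown libraries, against 92.3, 117 and 111 CPM in the control libraries. The groups overlapped, and the log2 fold change of −0.11 had a 95% interval from −0.35 to 0.13 (edgeR adjusted p 0.729). Its partner usp (FBgn0003964, X, 2038798 to 2042311) had 91.6, 88.2 and 105 CPM in the knockdown libraries, against 128, 104 and 111 CPM in the control libraries. Knockdown replicate 3 lay just above control replicate 2, so the groups overlapped here too. The log2 fold change of usp was −0.27 with an interval from −0.51 to −0.03, an unadjusted p of 0.0319 and an edgeR adjusted p of 0.236. usp shares 265 bp of exon with its neighbours Actn and CG4313.

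Eip93F encodes a helix-turn-helix factor that directs tissues towards the adult programme. It lies on 3R from 21949114 to 22014539 (FBgn0264490). It had 286, 359 and 348 CPM in the knockdown libraries, against 831, 854 and 806 CPM in the control libraries. No knockdown library came near the control libraries. The mean was 331 ± 39.7 CPM in knockdown and 830 ± 23.8 CPM in control (SD, n = 3 each), or 39.9% of control, with a log2 fold change of −1.33 (SE 0.0848, edgeR adjusted p 7.11e-06). This was the largest change among the called genes of the set, and with 1 library left out it ran from −1.39 to −1.23 and remained called.

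br (FBgn0283451, X, 1575132 to 1664869) had 2592, 2520 and 2364 CPM in the knockdown libraries, against 3590, 3383 and 3153 CPM in the control libraries. All knockdown libraries were below all control libraries. The mean was 2492 ± 117 CPM in knockdown and 3376 ± 219 CPM in control (SD, n = 3 each), which is a fitted log2 difference of −0.44 (SE 0.0552, edgeR adjusted p 8.21e-04). The transcripts of br encode proteins with different zinc finger pairs, and counts per gene do not separate them. br is X-linked and the sex of the larvae is not given. The 1461 tested protein-coding genes of the X chromosome had a median log2 fold change of −0.01 against 0.01 on the other chromosomes. Fly males compensate the dosage of the X, so this median cannot show whether the groups differed in sex.

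Eip75B encodes a heme-binding nuclear receptor that opposes Hr3. It lies on 3L from 17950953 to 18064696 (FBgn0000568). It had 636, 685 and 661 CPM in the knockdown libraries, against 902, 794 and 840 CPM in the control libraries, with no overlap. The mean was 661 ± 24.4 CPM in knockdown and 846 ± 54.2 CPM in control (SD, n = 3 each), which is a fitted log2 difference of −0.36 (SE 0.0607, edgeR adjusted p 0.00576). Both br and Eip75B remained called whichever library was left out, with br between −0.49 and −0.39 and Eip75B between −0.40 and −0.31.

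Eip74EF (FBgn0000567, 3L, 17558672 to 17619325), which encodes an ETS-domain factor, was the least certain of the calls. It had 28.6, 17.2 and 14.9 CPM in the knockdown libraries, against 37.9, 40.1 and 41 CPM in the control libraries. The groups did not overlap, but the knockdown libraries were more widely spread than the control libraries. The mean was 20.2 ± 7.30 CPM in knockdown and 39.7 ± 1.60 CPM in control (SD, n = 3 each), which is a fitted log2 difference of −0.97 (SE 0.222, edgeR adjusted p 0.0292). It stayed called only without knockdown replicate 1, at −1.31 (adjusted p 0.00138). The value was −0.88 without knockdown replicate 2 (adjusted p 0.0989), −0.79 without knockdown replicate 3 (0.0947), −1.01 without control replicate 1 (0.0839), −0.97 without control replicate 2 (0.106) and −0.95 without control replicate 3 (0.11).

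Of the 5 transcription factors of the response other than receptors, 3 were called, each with a span over 60 kb, and Blimp-1 and crol were not. That share of 60% stands beside 6.21% of all tested features. The 27.4% of long protein-coding genes is not fully matched to it, since crol spans 15112 bp. Blimp-1, a repressor that delays ftz-f1, had 0.803, 0.409 and 1.4 CPM in the knockdown libraries, against 2.56, 1.77 and 0.987 CPM in the control libraries. These low values overlapped, and its log2 fold change of −1.02 had an interval from −2.52 to 0.49. crol had 838, 943 and 814 CPM in the knockdown libraries, against 809, 827 and 833 CPM in the control libraries, and its log2 fold change of 0.07 had an interval from −0.07 to 0.21 (edgeR adjusted p 0.675).

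**Figure D2:**
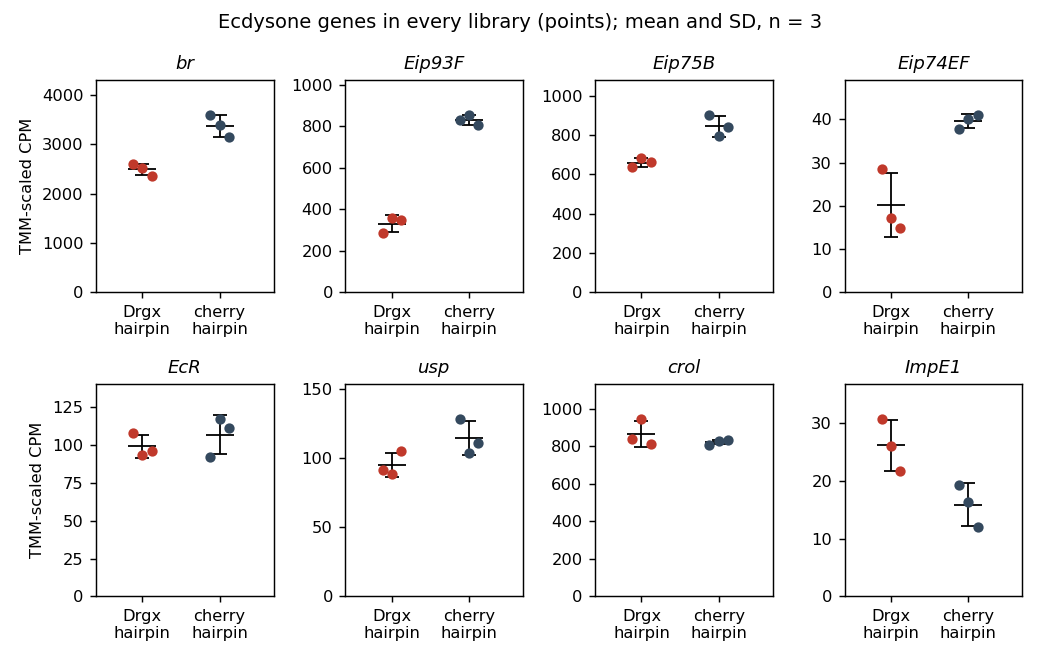
TMM-scaled CPM of 8 genes in every library, with knockdown (red, left) and control (dark, right); horizontal marks are means and bars the SD of 3 libraries. Values do not overlap for br, Eip93F, Eip75B, Eip74EF and ImpE1, and they overlap for EcR, usp and crol.

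The early genes were also set against one another within each library, in ratios chosen after the values were seen. The level of Eip93F relative to br was 0.11, 0.142 and 0.147 in the knockdown libraries, against 0.231, 0.252 and 0.256 in the control libraries. Relative to Eip75B, Eip93F stood at 0.449, 0.524 and 0.527 in knockdown, against 0.92, 1.08 and 0.96 in control. The ratio of br to crol was 3.09, 2.67 and 2.91 in knockdown, against 4.44, 4.09 and 3.79 in control. None of these 3 ratios overlapped between groups, and the two-sided exact permutation p of each was 0.1, the smallest that 3 libraries against 3 allow. The pairs were picked from genes already seen to differ in fold change, so these p-values add no support to the fold changes above. The ratio of Eip75B to EcR did overlap, at 5.91, 7.35 and 6.87 in knockdown and 9.77, 6.82 and 7.54 in control (exact permutation p 0.3, n = 3 each).

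Of the 6 tested receptors of the cascade, Eip75B was the 1 called, and the others had values on either side of no change. Hr4, which represses early genes as the pulse ends, had 186, 199 and 168 CPM in the knockdown libraries, against 188, 197 and 198 CPM in the control libraries (log2 fold change −0.08, interval −0.26 to 0.10). Hr39, a relative of ftz-f1, was at 105 ± 15.0 CPM in knockdown and 90.8 ± 5.97 CPM in control (SD, n = 3 each), with a log2 fold change of 0.21 and an interval from −0.05 to 0.47. ftz-f1, the competence factor of the prepupal period, had 25.8, 11.9 and 26.7 CPM in the knockdown libraries, against 24.4, 16.7 and 23.1 CPM in the control libraries. Knockdown replicate 2 was the lowest library for ftz-f1, and without it the log2 fold change was 0.29, against 0.01 with all libraries (edgeR adjusted p 0.995). Eip78C, a receptor related to Eip75B, had 5.53, 5.55 and 6.17 CPM in the knockdown libraries and 2.56, 5.15 and 4.62 CPM in the control libraries. These did not overlap, but the log2 fold change of 0.48 had an adjusted p of 0.552. Hr3, the activator of ftz-f1, was at 1.25 ± 0.248 CPM in knockdown and 1.72 ± 0.663 CPM in control, and 82.7% of its exon bases are shared with other annotated genes, so its log2 fold change of −0.47 is uncertain. ftz-f1 shares 29.4% of its exon bases with a long noncoding RNA gene on the same strand.

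None of the 8 tested receptors outside the cascade passed edgeR's test, DESeq2 or limma-voom, and none had an unadjusted p under 0.05. The most abundant, tll, had 120, 135 and 132 CPM in the knockdown libraries, against 151, 135 and 130 CPM in the control libraries (log2 fold change −0.11, interval −0.30 to 0.09). Those at intermediate levels were Hr78, Hr96, a receptor linked to lipids and foreign compounds, and ERR, a regulator of sugar metabolism. Hr78 was at 34.2 ± 9.97 CPM in knockdown and 36.7 ± 1.46 CPM in control, and ERR at 21.4 ± 2.31 CPM in knockdown and 22.5 ± 2.23 CPM in control (SD, n = 3 each). Hr96 had 22, 14.2 and 22.9 CPM in the knockdown libraries, against 20.1, 21.9 and 17.9 CPM in the control libraries. Knockdown replicate 2 held the lowest value of Hr78 (23.4 CPM) and of Hr96 (14.2 CPM). The log2 fold changes were −0.10 for Hr78, −0.02 for Hr96 and −0.07 for ERR, and without knockdown replicate 2 those of Hr78 and Hr96 turned to 0.11 and 0.16. Genes on the opposite strand share 52.2% of the exon bases of ERR and 18.3% of those of Hr78. svp, known for specifying photoreceptors, stood at 2.54 ± 0.879 CPM in knockdown and 3.16 ± 0.344 CPM in control, and Hnf4, a regulator of fat use, at 3.49 ± 1.26 CPM in knockdown and 2.46 ± 1.73 CPM in control. Hr38, whose RNA is induced by neuronal activity, had 54, 24 and 31 counts in the knockdown libraries and 37, 2 and 47 in the control libraries. dsf, a gene of sexual behaviour, had 0, 0 and 69 counts in the knockdown libraries and 37, 19 and 13 in the control libraries, so that knockdown replicate 3 held its whole knockdown level. The log2 fold changes of these scarce receptors were −0.31 for svp, 0.51 for Hnf4, 0.37 for Hr38 and −0.09 for dsf, the last turning to 0.48 without knockdown replicate 2.

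Outside the transcription factors, the 9 response genes held no call by edgeR, with 1 at an unadjusted p under 0.05, 1 call by DESeq2 and 0 by limma-voom. That gene was ImpE1 (FBgn0001253, 3L, 8372405 to 8391171), which encodes a protein with LDL receptor repeats. It had 30.7, 26 and 21.8 CPM in the knockdown libraries, against 19.4, 16.3 and 12 CPM in the control libraries, without overlap. The fitted difference on the log2 scale was 0.72 (SE 0.205), and the edgeR adjusted p was 0.0809, with a DESeq2 adjusted p of 0.0177 and an adjusted p of 0.0477 when only features with at least 10 counts in every library were tested. ImpE1 was thus the gene whose side of the threshold depended on the tool and on the filter.

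The other genes named for their induction by ecdysone in imaginal discs were scarce. ImpE2 stood at 1.74 ± 0.530 CPM in knockdown and 3.22 ± 0.580 CPM in control, without overlap (log2 fold change −0.89, adjusted p 0.354). ImpL2, a secreted protein that binds insulin-like peptides, stood at 2.48 ± 0.696 CPM in knockdown and 1.41 ± 0.195 CPM in control, without overlap (0.81, adjusted p 0.466), and shares 61.9% of its exon bases with CG46460. ImpE3 was at 1.19 ± 0.622 CPM in knockdown and 0.840 ± 0.329 CPM in control, and ImpL1 at 0.551 ± 0.510 CPM in knockdown and 0.493 ± 0.429 CPM in control. Of the more abundant response genes, Eip63E had 396, 316 and 333 CPM in the knockdown libraries, against 339, 314 and 309 CPM in the control libraries (log2 fold change 0.12, interval −0.08 to 0.32). Eip71CD, a methionine sulfoxide reductase gene, was at 22.9 ± 4.26 CPM in knockdown and 23.3 ± 1.14 CPM in control, with a log2 fold change of −0.03 and an interval from −0.39 to 0.33. Eip55E, a gene of cysteine synthesis, had 17.1, 13.1 and 17.6 CPM in the knockdown libraries, against 18.1, 18.7 and 23.9 CPM in the control libraries, without overlap (log2 fold change −0.34, adjusted p 0.421). Eip63F-1, a calcium-binding protein gene, had 21, 9 and 29 counts in the knockdown libraries and 2, 20 and 43 in the control libraries. ImpE3, ImpL1 and Eip63F-1 had log2 fold changes of 0.50, 0.16 and −0.04, and that of Eip63F-1 was 0.26 without knockdown replicate 2.

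rig, a WD40 protein that binds nuclear receptors, had 115, 123 and 108 CPM in the knockdown libraries, against 97, 112 and 94.1 CPM in the control libraries (log2 fold change 0.19, interval −0.02 to 0.41, edgeR adjusted p 0.366). E23, an ABC transporter gene that dampens the hormone response, had 40, 91 and 40 counts in the knockdown libraries and 3, 198 and 44 in the control libraries (log2 fold change −0.15, edgeR adjusted p 0.971).

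**Figure D3:**
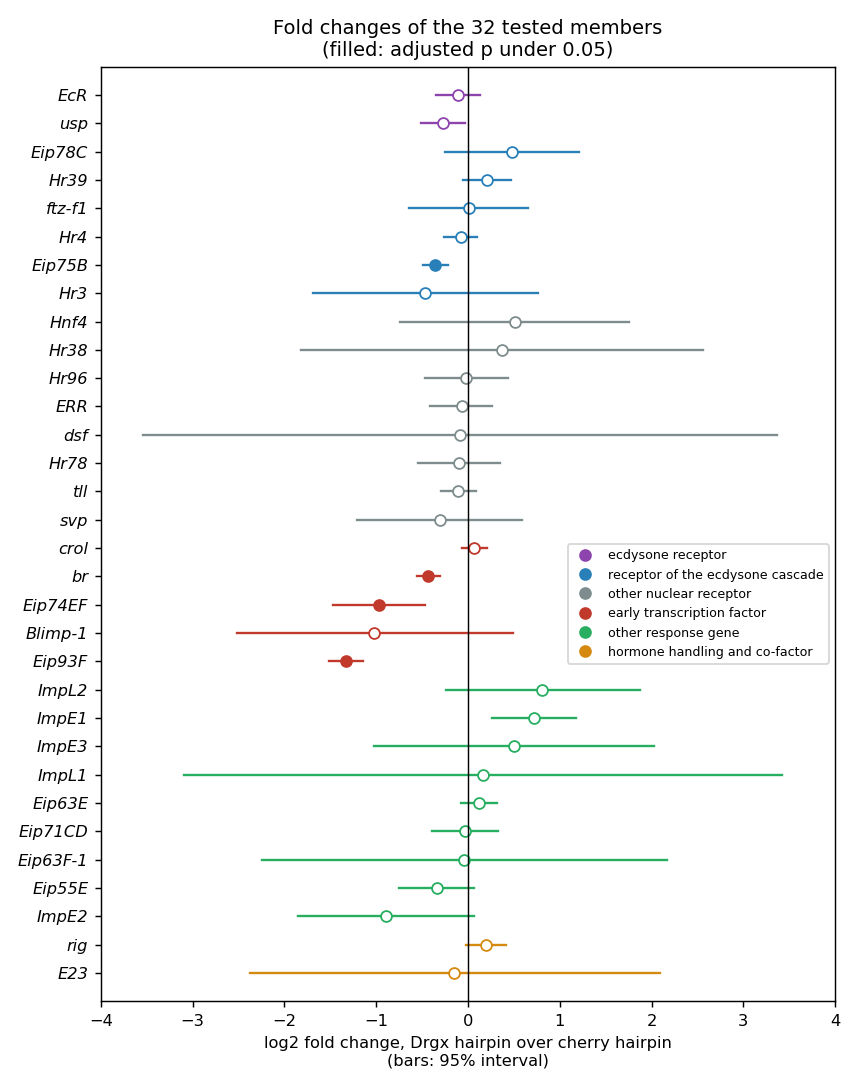
Log2 fold changes (knockdown over control) of the 32 tested genes with 95% intervals, grouped by role from the ecdysone receptor at the top to hormone handling at the bottom; filled points have an edgeR adjusted p under 0.05. The 4 filled points lie between −1.33 and −0.36, and the widest intervals belong to genes with few counts such as dsf and ImpL1.

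How small a change the data could show depended on the level. The 11 tested genes at 50 CPM or more had standard errors of the log2 fold change from 0.0552 to 0.116, and 3 of them were called. Of all tested features at that level, 10.4% were called. The 8 genes from 5 up to 50 CPM had standard errors from 0.149 to 0.287 with 1 call, and the 13 genes under 5 CPM had 0.325 to 1.54 with 0 calls by edgeR. For that last group changes of the size called for br and Eip75B were not detectable at this depth.

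Other genes of the pathway were taken from lists chosen with earlier results of these data known, and their counts are given as a description. The lists hold 59 names, of which 52 matched and 43 were tested. Of these 43, 9 passed edgeR's test, 1 higher and 8 lower, that is 20.9% beside the 6.21% of all tested features. The lists mix genes of at least 20 kb with shorter ones, of which 27.4% and 4.29% were called among all tested protein-coding genes. The median log2 fold change over the 43 was 0.01. DESeq2 called 13, 4 of them higher, and limma-voom 11, 3 of them higher.

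Genes of hormone synthesis held no call. None of the 8 tested passed with edgeR, DESeq2 or limma-voom, and 1 (spok) had an unadjusted p under 0.05. Of the genes for uptake and membrane response, Oatp74D, the importer of ecdysone into cells, fell. It had 6.2, 8.38 and 5.11 CPM in the knockdown libraries, against 14, 17.5 and 26 CPM in the control libraries. All knockdown values lay below all control values, and the log2 fold change was −1.55 (SE 0.276, edgeR adjusted p 0.00764), between −1.77 and −1.27 and called whichever library was left out. DopEcR, a membrane receptor for dopamine and ecdysteroids, was at 17.9 ± 7.49 CPM in knockdown and 18.0 ± 3.56 CPM in control. These near-equal means rest on knockdown replicate 2. The libraries had 13.8, 26.5 and 13.4 CPM in knockdown, against 14.1, 21.1 and 18.9 CPM in control. Neither of the 2 tested inactivation genes passed with any of the 3 tools or had an unadjusted p under 0.05.

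Co-regulators of the receptors held no edgeR call among 12 tested, with 6 at an unadjusted p under 0.05, 3 calls by DESeq2 and 1 by limma-voom. Of all 9932 tested features, 1630 had such an unadjusted p. The 6 were Chd3, bon, Hsc70-4 and Hsp83, higher (log2 fold changes 1.51, 0.30, 0.16 and 0.08), and nej and Smr, lower (−0.22 and −0.16). Without overlap were 5 higher and 2 lower, where 23.3% of all tested features did not overlap. tai, the co-activator of EcR, was at 98.8 ± 9.15 CPM in knockdown and 91.6 ± 4.79 CPM in control. Smr, a co-repressor of EcR, was at 479 ± 36.7 CPM in knockdown and 535 ± 23.5 CPM in control (log2 fold change −0.16, edgeR adjusted p 0.291).

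Of 12 other tested targets and timing genes, 5 passed (41.7%, beside 6.21% of all tested features), 4 lower and 1 higher, while DESeq2 and limma-voom each called 6, 2 of them higher. Of those called by edgeR, Syp, mamo, lov and gce span more than 20 kb and Sox14 spans 6377 bp. Among all tested protein-coding genes of at least 20 kb, 27.4% were called. Syp encodes an RNA-binding protein whose level rises in late-born neurons in opposition to that of Imp. Syp had 719, 760 and 690 CPM in the knockdown libraries, against 987, 1014 and 1007 CPM in the control libraries (log2 fold change −0.47, SE 0.0520, edgeR adjusted p 3.47e-04). mamo, a zinc finger gene of neuronal identity, had 1735, 1955 and 1763 CPM in the knockdown libraries, against 2346, 2465 and 2356 CPM in the control libraries (−0.39, SE 0.0531, adjusted p 0.00124). Neither overlapped between groups, and both remained called whichever library was left out.

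Imp and chinmo, which mark early-born neurons, did not pass the test. chinmo had 983, 928 and 909 CPM in the knockdown libraries, against 944, 906 and 942 CPM in the control libraries, with a log2 fold change of 0.01 and an interval from −0.10 to 0.13. Imp had 12.6, 20.9 and 18.3 CPM in the knockdown libraries, against 16.9, 15.9 and 18.6 CPM in the control libraries, with an interval from −0.44 to 0.47.

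lov, which encodes a BTB domain protein, was the 1 gene of the lists called higher by edgeR. It had 22.8, 19.1 and 23.8 CPM in the knockdown libraries, against 9.18, 5.31 and 7.63 CPM in the control libraries (log2 fold change 1.58, SE 0.224, edgeR adjusted p 0.00176), and it shares 512 bp of exon with CG43106. Mical, a pruning gene downstream of Sox14, had 152, 138 and 157 CPM in the knockdown libraries, against 133, 105 and 105 CPM in the control libraries, higher without overlap but with an edgeR adjusted p of 0.0809 (log2 fold change 0.38). Sox14, an ecdysone target required for dendrite pruning, stood at 14.0 ± 1.38 CPM in knockdown and 22.4 ± 1.85 CPM in control (−0.68, adjusted p 0.0295). gce, a juvenile hormone receptor gene, stood at 9.51 ± 0.893 CPM in knockdown and 18.6 ± 3.79 CPM in control (−0.97, adjusted p 0.0161), and 2364 bp of its exons lie opposite antisense RNA genes. Sox14 lost its call whichever library was left out (adjusted p 0.0629 to 0.103). gce lost it without knockdown replicate 2 (0.0519), knockdown replicate 3 (0.0541) or control replicate 2 (0.0847).

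Activin signalling, which raises EcR in mushroom body neurons before their pruning, was the last list, and 3 of its 7 tested genes passed, all lower (42.9%, beside 4.11% of all tested features called lower and 10.4% of features at 50 CPM or more called in either direction). put, a type II receptor of the pathway, had 186, 192 and 183 CPM in the knockdown libraries, against 275, 291 and 279 CPM in the control libraries (log2 fold change −0.59, SE 0.0634, edgeR adjusted p 2.90e-04). The groups were far apart relative to their spread, and put remained called whichever library was left out. wit, a related receptor, stood at 70.6 ± 3.08 CPM in knockdown and 92.8 ± 3.40 CPM in control (−0.39, adjusted p 0.0258), and the ligand gene Actbeta at 84.1 ± 7.82 CPM in knockdown and 110 ± 5.95 CPM in control (−0.38, adjusted p 0.0478). wit lost its call whichever library was left out (adjusted p 0.0501 to 0.112). Actbeta kept it only without knockdown replicate 2 (0.0354) and otherwise reached 0.0835 to 0.201. wit shares 400 bp of exon with the synthesis gene dib. babo, the type I receptor, was at 144 ± 17.1 CPM in knockdown and 146 ± 18.8 CPM in control.

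**Figure D4:**
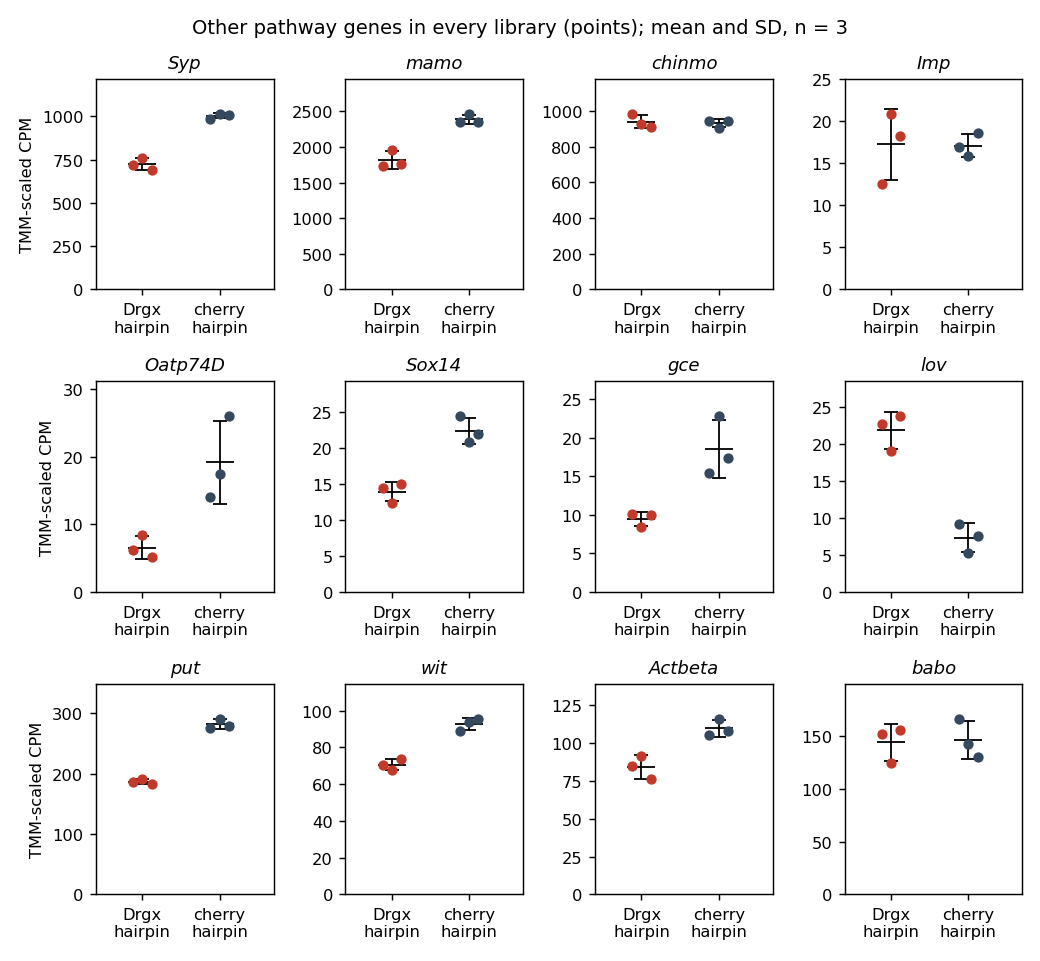
TMM-scaled CPM of 12 other pathway genes in every library, with knockdown (red, left) and control (dark, right); horizontal marks are means and bars the SD of 3 libraries. Syp, mamo, Oatp74D, Sox14, gce, put, wit and Actbeta are lower in all knockdown libraries and lov higher, while chinmo, Imp and babo overlap.

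The falls of br, Eip93F, Eip75B, Syp and mamo stood beside lower nSyb, brp and Syt1, which act at mature synapses, and beside higher fne. The summed T4/T5 lineage level was lower too, at 3337 to 3503 CPM in knockdown and 4995 to 5284 CPM in control. The glial sum was higher, with nrv2 alone at means of 600 CPM in knockdown and 460 CPM in control. Against these stood elav at a log2 fold change of −0.02, repo at 9.82 CPM in knockdown and 9.74 CPM in control, and a lower Gli. The part of these differences in the results was not tested. Without knockdown replicate 2, 3 of the 32 tested genes of the set were called, all lower, against 4 with all libraries. In that fit 9.38% of the tested genes of the set were called, beside 5.26% of all tested features.

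**Figure D5:**
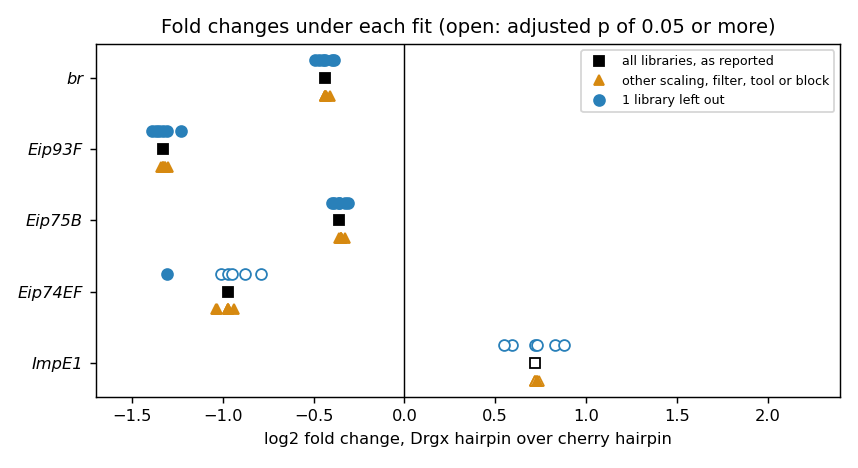
Log2 fold changes of 5 genes with all libraries (squares), under 7 other settings (triangles) and with 1 library left out (circles); open symbols have an adjusted p of 0.05 or more. br, Eip93F and Eip75B are filled throughout, Eip74EF is open in 5 of the 6 fits with 1 library left out, and ImpE1 is filled in 3 of the 7 other settings and in none of the 6.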

How the data were processed

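Total RNA of sorted T4/T5 neurons (3 knockdown and 3 control samples) was turned into libraries with the SMART-Seq v4 kit, per the labels' protocols. The authors deposited 1 table of raw counts per FlyBase feature. STAR, DESeq2 and the build BDGP6 are named in the submitters' processing notes, and the counting program, annotation release and use of strand are not given in the sources used here. The kit amplifies whole transcripts without molecular tags, so limits from counts cover counting error only.

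Symbols and positions came from the Ensembl annotation of BDGP6.54, which held 23851 of the 23932 identifiers. In R 4.3.3, filterByExpr of edgeR 4.0.16 (minimum count 10) left 9932 features. They were scaled by TMM and tested with the quasi-likelihood F test with the group as the only term, with Benjamini-Hochberg adjustment over all tested features and a threshold of 0.05. Standard errors are the absolute log2 fold change over the square root of F, and 95% intervals use the moderated degrees of freedom. CPM use the TMM-scaled totals of the tested features. A count of 0 allows 3 counts.

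All genes of the set are accounted for. Called genes, genes with an unadjusted p under 0.05 and the 8 highest per kilobase have their value in every library, and other genes given in this way were added after their values were seen. Of the pathway lists, called genes are named, and others given were picked with their values in view. The genes and lists were chosen with earlier results of these data known, so nothing was tested over a list. Alternatives were DESeq2 size factors, library size only, 2 other filters, DESeq2 1.42.0, limma-voom (limma 3.58.1), a replicate block, and each library left out in turn. On simulated counts of 9545 tested features with 200 changed 4-fold, edgeR recovered 81% with 6 false calls.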

Additional observations from a re-analysis of the deposited data

How the results depend on the processing

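The count of genes of the set called was 4 and stayed at 3 to 5 under every alternative, 3 to 4 with 1 library left out. Over all features DESeq2 called 952 against 617, and leaving out 1 library gave 399 to 556, lowest without control replicate 2. The 9 calls in the pathway lists became 5 to 7 with 1 library left out. The cause was not tested, though these fits hold fewer samples. The fold changes of br, Eip93F, Eip75B and Eip74EF kept their sign throughout. With the replicate block 556 features and 5 genes of the set were called, ImpE1 being added (0.73, adjusted p 0.0324). Same-numbered libraries are known to share only a number, so the block is not known to be a paired design. Their deviations had correlations of 0.0246, −0.0170 and −0.0591, which cannot show whether they were prepared together. Actbeta also lost its call with DESeq2 size factors (adjusted p 0.0547) and library size only (0.0643), and Sox14, wit and Actbeta with the block (0.0546, 0.0574 and 0.0571).

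Of the 32 tested genes, 21 kept their sign in all fits, and none of the other 11 was called. With library size only Hr96 was at 0.01 and Eip63F-1 at 0.01. With limma-voom ftz-f1 was at −0.00, Eip63F-1 at 0.59 and E23 at 0.57. With the replicate block ftz-f1 was at −0.06, Eip63F-1 at 0.42 and E23 at 0.63. With 1 library left out the ranges were −0.18 to 0.29 for ftz-f1, −0.19 to 0.88 for Hr38, −0.30 to 0.11 for Hr78, −0.14 to 0.16 for Hr96, −0.16 to 0.01 for ERR, −7.50 to 0.59 for dsf (the lowest is against knockdown libraries at 0 and is no bound), −0.56 to 1.11 for Eip63F-1, −0.19 to 0.08 for Eip71CD, −0.00 to 0.77 for ImpE3, −0.60 to 0.73 for ImpL1 and −0.79 to 1.38 for E23. No scaling moved a tested gene of the set by more than 0.05. Promoter motifs were not run, since no genome sequence was used here.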
